A study of Mus musculus with 12 samples.

Results

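The genes described here are 39 transcriptional targets of p53, taken by symbol from a list of genes. All 39 were found among the 32288 genes and transgenes of the deposited count table, 39 had enough counts to be tested in the *c-Myc* comparisons, and 37 in the comparison of ages, where *Fas* and *Perp* were too low. In every one of the 12 libraries 32 of them had more than 3 counts. Expression was measured by bulk RNA-seq of sorted mGFP+ metaphyseal cells from femurs and tibias of mice that carried *Osx-CreERT2* and the *mTmG* reporter, so that tamoxifen marks cells with *Osx* promoter activity. Juvenile (4 libraries, 3 weeks of age) and adult (4 libraries, 8 weeks of age) osteoblasts came from pools of 2 male *Osx-CreERT2*; *mTmG* mice, collected 2 days after tamoxifen on 3 consecutive days. *c-Myc* osteoblasts (2 libraries) came from mice that also carried *LSL-tTA* and *Col1a1*::*TetO–c-Myc*, in which Cre recombination starts production of the tetracycline transactivator and so of *c-Myc*. *c-Myc* + *R172H* osteoblasts (2 libraries) carried *Trp53-LSL-R172H* in addition, a missense allele of *Trp53* that acts in a dominant-negative manner. The zygosity of this allele is not given in the sources used here. All 12 libraries came from tamoxifen-treated mice. For the induced mice, injections were given on 2 consecutive days from 3 weeks of age. They were collected 7 days later, are called 5 weeks old in the dissection protocol, and had bone ends trimmed by about 5 mm instead of 2 mm. The methods list the induced mice as male and female, but elsewhere state that male mice were used for RNA-seq. Inducible mice or pregnant females also drank doxycycline or tetracycline, stopped 2 weeks or 1 week before analysis, respectively. In comparisons with juvenile osteoblasts, *c-Myc* and these differences of protocol, sex and age cannot be told apart. The *c-Myc* and *c-Myc* + *R172H* groups shared 1 protocol.

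p53 is a transcription factor that is held low by the ubiquitin ligase MDM2 and accumulates after DNA damage or oncogene activation. It binds DNA as a tetramer at response elements made of pairs of half-sites, and its targets slow the cell cycle, promote cell death, repair DNA and adjust metabolism. The R172H protein, the mouse counterpart of a common human hotspot mutant, has lost normal DNA binding and can form mixed tetramers with wild-type p53. The listed targets were therefore followed gene by gene in 2 steps, the response to *c-Myc* and the difference made by R172H.

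Total counts per library were between 9066154 and 15684412. Levels below are CPM (read counts scaled to a common library size) after TMM normalization, and a gene was called when its adjusted p from edgeR was below 0.05. *Myc* was between 39.2 and 51.8 CPM in juvenile libraries and between 638 and 766 CPM in the 4 induced libraries, as the labels state. The 8 osteoblast markers held between 49.5% and 58% of all counts in juvenile libraries, between 13.9% and 16.9% in *c-Myc* and between 8.96% and 9.16% in *c-Myc* + *R172H* libraries. With library totals in place of TMM, the median log2 fold change of all tested genes was 0.87 for *c-Myc* over juvenile and 0.21 for *c-Myc* + *R172H* over *c-Myc*, so fold changes here are relative to the bulk of genes. Summed levels of 9 chondrocyte markers were 17900 to 34400 CPM in juvenile, 41500 to 130000 CPM in adult, 1880 to 2140 CPM in *c-Myc* and 887 to 1060 CPM in *c-Myc* + *R172H* libraries. Those of 6 stromal markers were 272 to 366 CPM in juvenile, 362 to 628 CPM in adult, 84.2 to 161 CPM in *c-Myc* and 66.2 to 86.9 CPM in *c-Myc* + *R172H* libraries, with *Lepr* called lower with R172H added (edgeR adjusted p = 0.00983). Those of 5 osteoclast markers were 200 to 327 CPM, 218 to 406 CPM, 85.8 to 106 CPM and 53.5 to 53.6 CPM in the same order, with *Ocstamp* and *Calcr* at 0 throughout. Those of 9 haematopoietic markers were 1.27 to 5.62 CPM, 7.43 to 12.1 CPM, 11.9 to 13.3 CPM and 8.45 to 9.56 CPM, with *S100a8* at 0 throughout and *Lyz2* called higher with *c-Myc* (log2 fold change 4.23), and those of 6 endothelial markers did not exceed 10 CPM. The part of these lists in the values of the targets was not tested. *Xist*, transcribed from the inactive X chromosome of female cells, was at 237 and 217 CPM in replicate 2 of the *c-Myc* and *c-Myc* + *R172H* groups and at most 1.23 CPM in the other libraries. The induced groups thus held 1 library with and 1 without *Xist* each. In bulk samples, fewer cells that express a gene and less RNA per cell cannot be told apart.

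RefSeq promoter windows of GRCm38.p6, from 250 bases before to 50 bases after an annotated start, were found for 32 of the 39 genes. A p53 half-site, a degenerate motif of 10 bases that reads the same on both strands, matched in 9 of these 32 genes (28.1%), compared with 9.55% of all 27025 genes with a window. Of the 15 genes with a window that were called higher with *c-Myc* (below), 6 had a match (40%). So did 1 of 6 genes called lower (16.7%) and 2 of 11 not called (18.2%). Because the list was chosen as p53 targets, these shares are a description and have no test. The 6 genes with both a match and a rise are shown, a choice made on both traits. Each stretch is 30 bases on the strand of the gene, with the matching half-site in capitals.
*Ccng1*, chr11:40755452-40755481, minus strand, match starting 185 bases before the start: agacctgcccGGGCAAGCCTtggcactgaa
*Sesn1*, chr10:41887256-41887285, plus strand, match starting 173 bases before the start: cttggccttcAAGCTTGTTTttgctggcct
*Aen*, chr7:78895927-78895956, plus strand, match starting 121 bases before 1 annotated start and 11 bases past another: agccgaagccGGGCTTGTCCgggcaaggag
*Ckap2*, chr8:22186003-22186032, minus strand, match starting 203 bases before the start: ctgtgtctgaAGACATGTCCtgacttgtca
*Ei24*, chr9:36797335-36797364, minus strand, match starting 10 bases before the start: ccagctgccccgtgcggcccGGGCATGCCC
*Rps27l*, chr9:66946193-66946222, plus strand, match starting 210 bases before the start: ctttgggctcGGGCTTGCTTtccttcaggc
*Rps27l*, chr9:66946296-66946325, plus strand, match starting 107 bases before the start: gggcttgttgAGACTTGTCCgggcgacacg

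*Rps27l* was the only gene among these 6 with 2 separate matches in 1 window. The other matches lay in *Polk*, *Rap2b* and *Abhd4*, which did not rise with *c-Myc*. The E-box CACGTG, a sequence bound by Myc, matched in windows of *Aen*, *Eda2r*, *Fas* and *Gdf15* (4 of 32, 12.5%, against 8.09% of all genes with a window), and only in *Aen* together with a half-site. A match describes the letters in these windows and is not a measured binding site.

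With *c-Myc*, 18 of the 39 targets were called higher and 6 lower than in juvenile osteoblasts, and 15 were not called. Of all 12588 genes tested, 28.4% were called higher and 25% lower. The share of targets called higher, 18 of 39, was thus above that of all genes, and the share called lower was below it. The median log2 fold change was 0.54 over the targets and 0.04 over all tested genes, and 71.8% of the targets had a higher value against 51.3% of all genes. Without replicate 2 of both induced groups, the libraries with *Xist*, 13 targets were called higher and 5 lower (2286 and 1969 of all genes, against 3577 and 3149), in a fit where each induced group had 1 library that was assumed to vary like the others. With library totals, 31 targets were called higher and 2 lower (6803 and 1116 of all genes), and the median moved to 1.37 while that of all genes moved to 0.87. The spread of edgeR's estimates was borrowed across 8 libraries because the *c-Myc* group had only 2.

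The largest increase was that of *Psrc1*, which encodes a microtubule-associated protein of the mitotic spindle (chromosome 3, 108383839 to 108388231 in mm10). It was at 3.35, 2.77, 0.959 and 1.96 CPM in juvenile replicates 1 to 4, and at 42.5 and 42.1 CPM with *c-Myc*. No juvenile library came near the *c-Myc* libraries, and the log2 fold change was 4.10 (SE 0.26, edgeR adjusted p = 9.74e-08). *Slc19a2*, a thiamine transporter gene (chromosome 1, 164249046 to 164265385), was at 2.17, 2.46, 1.23 and 0.490 CPM in juvenile libraries and at 27.6 and 21.0 CPM with *c-Myc*. The increase was 3.81 on the log2 scale (SE 0.34, edgeR adjusted p = 1.54e-06), and its *c-Myc* libraries lay far above every juvenile library. *Eda2r*, which encodes a death-domain-free receptor of the TNF family for ectodysplasin A2 (chromosome X, 97333840 to 97377216), was at 2.08, 2.46, 0.411 and 0.490 CPM and rose to 17.8 and 16.9 CPM. The juvenile libraries of *Eda2r* fell into a higher and a lower pair, both well below *c-Myc*, and the log2 fold change was 3.51 (SE 0.42, edgeR adjusted p = 1.85e-05). As counts, the juvenile values of these 3 genes rested on 3 to 37 reads per library and the *c-Myc* values on 293 to 910.

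Among the targets called lower, the largest decreases were those of *Pltp*, *Btg2* and *Abhd4*. *Pltp*, encoding phospholipid transfer protein (chromosome 2, 164839518 to 164857711), was at 87.8, 84.4, 73.7 and 67.2 CPM in juvenile libraries and at 28.9 and 28.0 CPM with *c-Myc*. It fell by 1.53 on the log2 scale (SE 0.14, edgeR adjusted p = 1.7e-06), with no overlap between the groups. Exons of *Pltp* overlap those of *Ctsa* on the opposite strand over 495 bases, and the strand setting of the counting is not given in the sources used here. *Btg2*, an antiproliferative gene of the BTG/TOB family (chromosome 1, 134075170 to 134079120), was at 108, 157, 126 and 109 CPM and at 45.9 and 50.7 CPM with *c-Myc*. Its log2 fold change was -1.43 (SE 0.15, edgeR adjusted p = 6.18e-06), and every juvenile library exceeded both *c-Myc* libraries. *Abhd4*, a lysophospholipase gene of N-acyl phospholipid metabolism (chromosome 14, 54254188 to 54270637), was at 29.8, 29.8, 24.4 and 25.5 CPM and at 13.0 and 12.1 CPM with *c-Myc*, again without overlap. On the log2 scale *Abhd4* fell by 1.19 (SE 0.17, edgeR adjusted p = 8.74e-05).

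**Figure D1:**
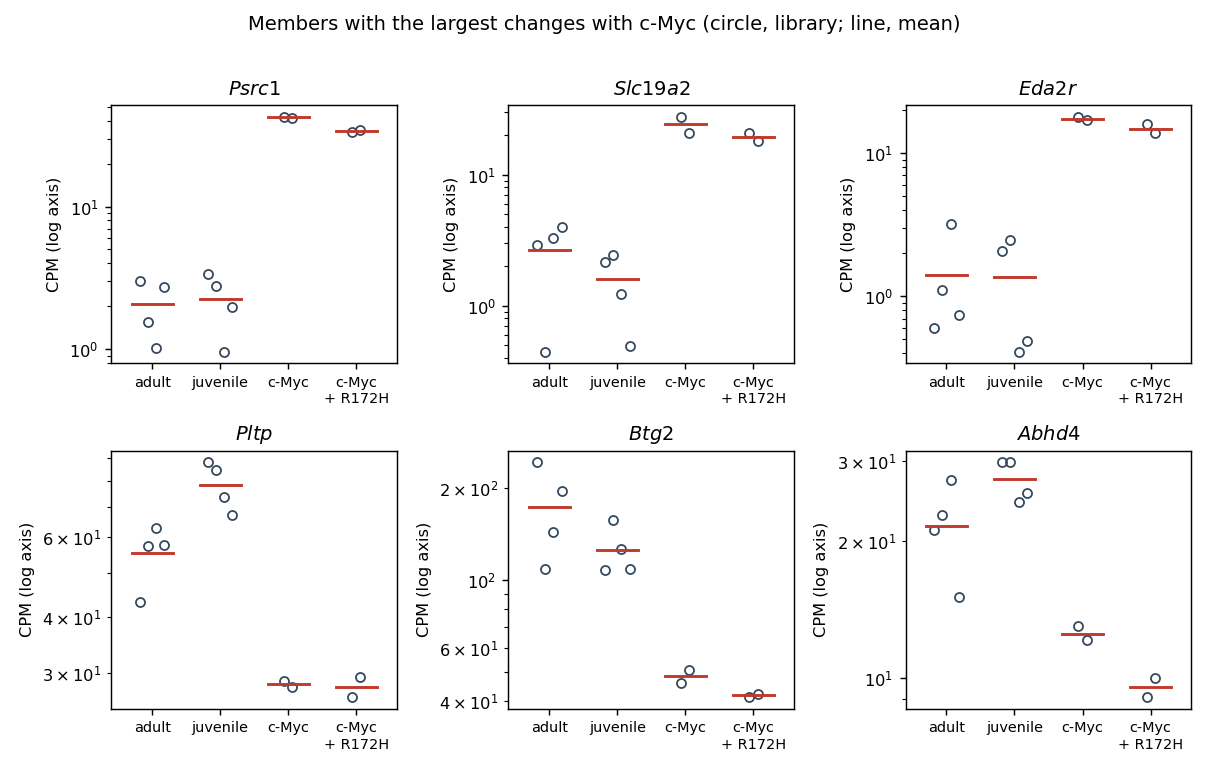
CPM (log axis) of the 3 targets with the largest increases and the 3 with the largest decreases among those called with c-Myc. Circles are the libraries of the 4 groups, and lines are group means. The c-Myc and c-Myc + R172H libraries of Psrc1, Slc19a2 and Eda2r lie above all 8 juvenile and adult libraries, and those of Pltp, Btg2 and Abhd4 lie below them.

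Among the 11 targets that act on growth and division, 4 rose, 3 fell and 4 were not called, with a median log2 fold change of 0.03. These shares were near those over all tested genes, of which 28.4% were called higher and 25% lower. Besides *Psrc1*, the genes that rose were *Ckap2*, a microtubule-stabilizing gene of mitosis (2.22), *Ccng1*, cyclin G1 (1.13), and *Fbxw7*, the substrate receptor of a ubiquitin ligase that degrades Myc (0.82). Besides *Btg2*, *Epha2*, an ephrin receptor kinase gene, fell by 1.14 on the log2 scale, and *Sertad1*, which encodes a CDK4-binding protein, fell by 0.38. The call of *Sertad1* (edgeR adjusted p = 0.0457) was lost without juvenile replicate 1 or 4 (edgeR adjusted p = 0.0574 and 0.054). It was also lost without any 1 of the 4 induced libraries, without a filter, with only the 2 groups and with all 12 libraries. With library totals *Sertad1* had a value of 0.46 and was called higher. The polo-like kinase genes *Plk2* (0.03) and *Plk3* (0.53), the antiproliferative *Tob1* (-0.18) and the GTPase gene *Rap2b* (-0.05) were not called. All 10 genes of a proliferation list were called higher, with summed levels of 91.0 to 127 CPM in juvenile and 580 to 623 CPM in *c-Myc* libraries. Of 10 immediate early genes, which respond to stimuli such as tissue dissociation, 9 were called lower, with summed levels of 3200 to 4560 CPM in juvenile and 2370 to 2510 CPM in *c-Myc* libraries. The part of either list in the values of *Psrc1*, *Ckap2* or *Btg2* was not tested.

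The death group moved in 1 direction only where it was called. Of its 13 targets, 8 rose, 0 fell and 5 were not called, against 28.4% of all tested genes called higher and 25% lower. The median log2 fold change of the group was 1.43. The genes that rose were *Eda2r*, *Pidd1*, the scaffold of the caspase-2-activating PIDDosome (1.89), *Tnfrsf10b*, the mouse TRAIL receptor gene (1.71), *Zmat3*, an RNA-binding zinc finger gene (1.54), *Phlda3*, a repressor of Akt (1.49), *Rps27l*, a ribosomal protein paralogue (1.43), *Aen*, a nuclease gene (1.38), and *Ei24*, an endoplasmic reticulum protein gene (0.56). *Triap1* (0.21), *Apaf1*, the apoptosome gene (0.01), and *Trp53inp1* (-0.17) were not called. *Fas*, the death receptor gene, had a log2 fold change of -1.41 and *Perp*, a membrane protein gene, of 1.81, but their SEs were 1.19 and 0.91 at levels of at most 2.44 CPM in any library of these groups. Without replicate 1 of the *c-Myc* group, *Tnfrsf10b* (1.72) and *Ei24* (0.50) were no longer called (edgeR adjusted p = 0.0515 and 0.0859), with the spread of the lone *c-Myc* library taken from the other groups.

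Of the 5 DNA repair targets 1 was called higher and 0 lower, where 28.4% and 25% of all tested genes were. The called gene was *Rrm2b*, the p53-inducible subunit of ribonucleotide reductase, with a log2 fold change of 1.15 (SE 0.33, edgeR adjusted p = 0.00953). When either *c-Myc* library was left out the value was 1.16 or 1.15 and the call was lost (edgeR adjusted p = 0.077 without replicate 1 and 0.0736 without replicate 2), in fits where the lone *c-Myc* library was assumed to vary like the other groups. The nucleotide excision repair genes *Xpc* (0.53), *Ercc5* (0.43) and *Ddb2* (0.14) and the translesion polymerase gene *Polk* (0.30) had higher values that did not pass. *Ddb2* did not exceed 1.45 CPM in juvenile or *c-Myc* libraries.

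Over all tested genes 28.4% were called higher and 25% lower with *c-Myc*. Of the 10 targets of metabolism and transport, 5 rose, 3 fell and 2 were not called. *Slc19a2*, *Tigar*, a fructose bisphosphatase gene (1.85), *Bloc1s2*, of a lysosomal complex (1.36), and the sestrin genes *Sesn1* (1.36) and *Sesn2* (0.98), whose products restrain mTORC1, rose. *Pltp*, *Abhd4* and *Ak1*, which encodes adenylate kinase 1, fell, the last by 0.69 on the log2 scale. *Ak1* had 0.15 with library totals. *Gdf15*, a secreted stress factor of the TGF-β family (0.47), and *Steap3*, a ferrireductase gene (-0.16), were not called. The call of *Bloc1s2* was lost without *c-Myc* replicate 1 (1.12, edgeR adjusted p = 0.171). *Sesn2* and *Gdf15* are also induced by the integrated stress response. Of 8 genes of that response, 4 were called higher and 1 lower, with summed levels of 283 to 320 CPM in juvenile, 494 to 513 CPM in *c-Myc* and 436 to 453 CPM in *c-Myc* + *R172H* libraries, and their part in these values was not tested.

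**Figure D2:**
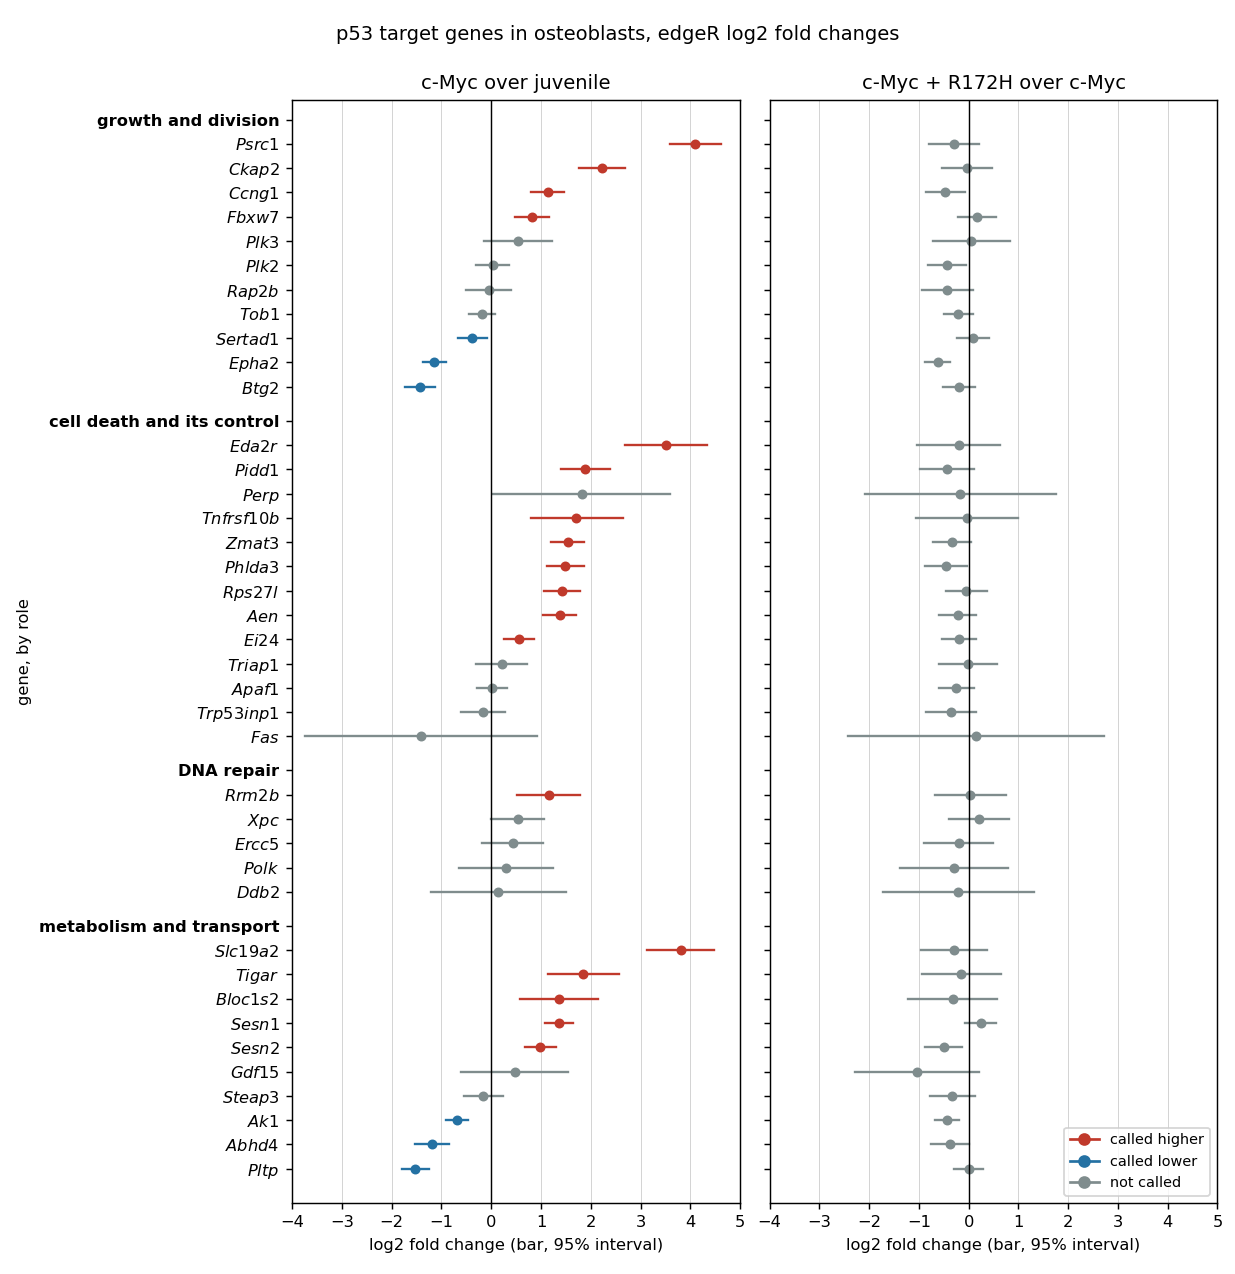
Log2 fold changes of the 39 targets by role, for c-Myc over juvenile (left) and for c-Myc + R172H over c-Myc (right), with bars for approximate 95% intervals and color for edgeR calls. On the left 18 points are called higher and 6 lower. On the right no point is called, and 32 of 39 lie below 0.

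When R172H was added, calls depended on the fit. In *c-Myc* + *R172H* over *c-Myc*, edgeR on all 8 libraries called 0 of the 39 targets in either direction, against 0.00794% of all genes called higher and 0.461% called lower. At an unadjusted p below 0.05 there were 5 targets, all with lower values, and DESeq2 called 2 (*Epha2* and *Ak1*). Of the 18 targets that rose with *c-Myc*, 0 were called lower by either. In an edgeR fit of only these 2 groups, 8 targets were called lower, and with a replicate block 5, of which 4 (*Ccng1*, *Phlda3*, *Zmat3* and *Sesn2*) and 3 (the same without *Zmat3*) had risen with *c-Myc*. These fits had 2 residual degrees of freedom. With both choices together, at 1 residual degree of freedom, 12 were called lower, 6 of them among the 18. The values themselves leaned downward. A lower value was measured for 32 of 39 targets (82.1%), compared with 50.7% of all tested genes, and the median log2 fold change was -0.21, compared with -0.0028 over all genes. Both *c-Myc* + *R172H* libraries lay below both *c-Myc* libraries for 23 targets, where 26.3% of all genes did so, and above both for 3 targets, where 18.6% of all genes did so. With library totals the median was -0.0077, and that of all genes was 0.21.

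The 5 targets with the lowest p-values are given in every library, a choice made after their values were seen. *Epha2* (chromosome 4, 141301240 to 141329384) was at 41.0 and 45.4 CPM with *c-Myc* and at 26.0 and 29.3 CPM with R172H added, and at 84.5 to 97.4 CPM in juvenile libraries. The 3 groups were ordered without overlap, and the log2 fold change for R172H was -0.62 (SE 0.13, edgeR adjusted p = 0.0698). *Ak1* (chromosome 2, 32621758 to 32635058) was at 44.4 and 43.6 CPM and at 32.1 and 31.9 CPM with R172H, a log2 fold change of -0.44 (SE 0.12, edgeR adjusted p = 0.257). Both genes had fallen with *c-Myc*, so the values with R172H lay further from the juvenile level. Such a direction was common. Of all 3149 genes called lower with *c-Myc*, 69% had a lower value with R172H, with a median log2 fold change of -0.117. They held 57 of the 58 genes called lower with R172H. Of the 6 targets called lower with *c-Myc*, 5 had a lower value with R172H. *Sesn2* (chromosome 4, 132492032 to 132510501), which had risen, was at 42.5 and 42.4 CPM with *c-Myc*, at 28.4 and 30.5 CPM with R172H, and between 17.4 and 26.4 CPM in juvenile libraries. Its log2 fold change for R172H was -0.51 (SE 0.19, edgeR adjusted p = 0.664). *Ccng1* (chromosome 11, 40748552 to 40755311) had likewise risen, to 96.9 and 86.6 CPM, and was at 67.9 and 63.0 CPM with R172H, against 31.1 to 54.4 CPM in juvenile libraries. The difference made by R172H was -0.47 on the log2 scale (SE 0.20, edgeR adjusted p = 0.918). For these 2 genes the R172H libraries stood between the juvenile and the *c-Myc* libraries without overlap. *Plk2* (chromosome 13, 110395046 to 110400844), which did not respond to *c-Myc* by the test, was at 36.0 and 41.1 CPM and at 24.1 and 32.2 CPM with R172H, a log2 fold change of -0.43 (SE 0.19, edgeR adjusted p = 0.994).

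**Figure D3:**
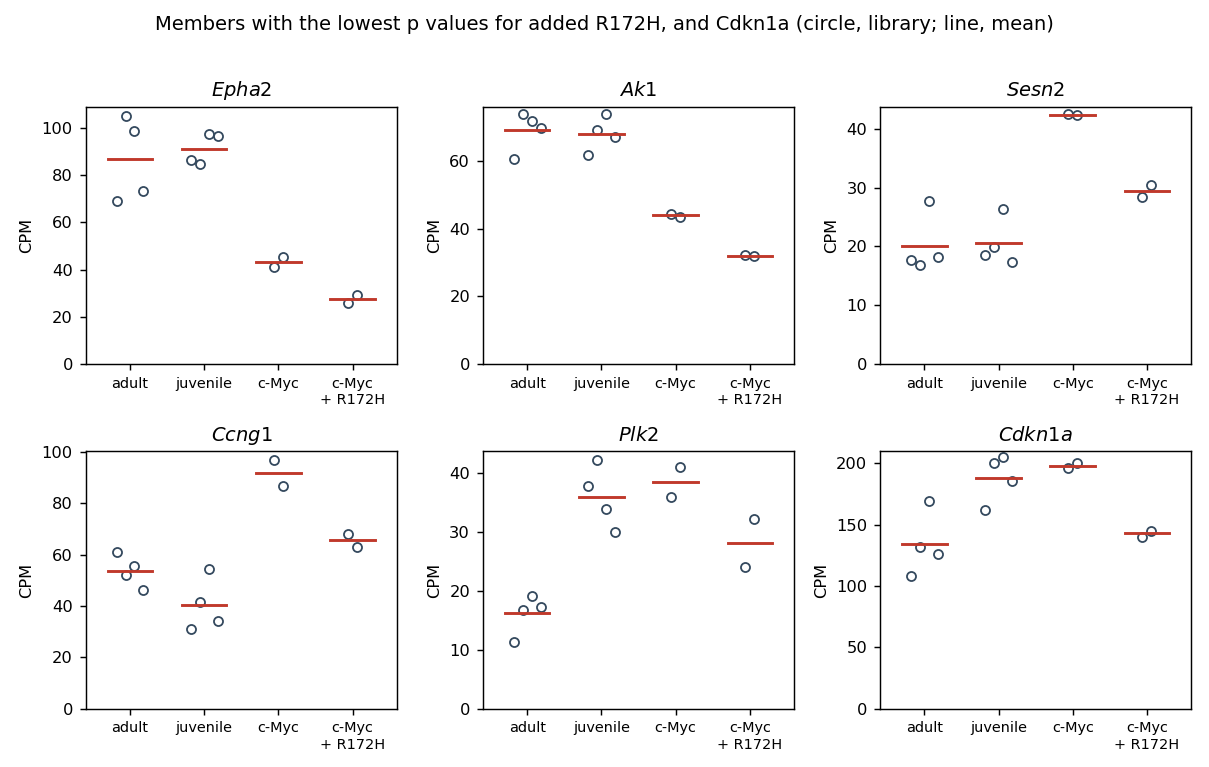
CPM of the 5 targets with the lowest p-values for added R172H, and of Cdkn1a, in each library (circles) of the 4 groups, with the group mean (line). In all 6 panels both c-Myc + R172H libraries lie below both c-Myc libraries, and for Sesn2 and Ccng1 they lie above the juvenile libraries.

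Of the 18 targets that rose with *c-Myc*, 15 had a lower value when R172H was added (83.3%), and 11 had both libraries below both *c-Myc* libraries. Of all 3577 genes called higher with *c-Myc*, 43.5% had a lower value, and for 20.7% both libraries were lower. The 2 comparisons share the *c-Myc* libraries, so these counts are a description and have no test. Their median log2 fold change was -0.21, from -0.51 (*Sesn2*) to 0.24 (*Sesn1*). The 2 sestrin genes thus lay at opposite ends of the range. *Sesn1* was at 43.2 and 39.5 CPM with *c-Myc* and at 51.5 and 45.0 CPM with R172H, so that its R172H libraries were above both *c-Myc* libraries. The 11 genes were *Psrc1* (-0.30), *Slc19a2* (-0.30), *Eda2r* (-0.20), *Tnfrsf10b* (-0.04), *Pidd1* (-0.44), *Zmat3* (-0.33), *Phlda3* (-0.46), *Aen* (-0.22), *Ei24* (-0.19), *Ccng1* and *Sesn2*. *Eda2r*, *Tnfrsf10b* and *Ei24* had values just above 0 with library totals. *Ckap2* (-0.03), *Rps27l* (-0.05), *Tigar* (-0.15) and *Bloc1s2* (-0.32) had lower values with libraries that overlapped, and *Fbxw7* (0.17) and *Rrm2b* (0.04) had higher values with libraries that overlapped. As a share of the rise in mean CPM from juvenile to *c-Myc*, the part no longer present with R172H was 59.2% for *Sesn2*, 51% for *Ccng1* and 42.8% for *Phlda3*, with a median of 20.9% over the 18 genes. A negative share, a further rise in the mean, was obtained for *Fbxw7*, *Rrm2b* and *Sesn1*.

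By role, lower values with R172H were measured for 12 of 13 death targets and 9 of 10 targets of metabolism and transport. The same held for 8 of 11 targets of growth and division and 3 of 5 repair targets. Over all tested genes 50.7% had a lower value, and the share of repair targets was near this. None of these targets was called in the fit of 8 libraries. The only death target with a higher value was *Fas* (0.15, SE 1.31), at 0.373 to 0.518 CPM in the 4 induced libraries. In the metabolism group the most negative value of all 39 targets belonged to *Gdf15* (-1.04, SE 0.64, edgeR adjusted p = 1). *Gdf15* was at 3.50 and 4.32 CPM with *c-Myc* and at 1.50 and 2.24 CPM with R172H, without overlap, and at 1.23 to 5.62 CPM in juvenile libraries. The proliferation list was at 580 to 623 CPM with *c-Myc* and at 599 to 645 CPM with R172H, and *Myc* differed by 0.14 (SE 0.13).

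Compared with juvenile osteoblasts, *c-Myc* + *R172H* osteoblasts had 18 targets called higher and 6 lower, with 30.4% of all genes called higher and 26.3% lower. With library totals these counts were 29 and 3 targets, and 7667 and 1169 of all genes, against 3832 and 3311. Of the 18 targets that rose with *c-Myc*, 17 were also called higher here, the exception being *Ei24* (0.37, edgeR adjusted p = 0.0545). Some of these calls depended on the fit. That of *Bloc1s2* (1.04, edgeR adjusted p = 0.045) was lost in several alternatives, among them RLE factors, no filter, DESeq2 and the replicate block. That of *Sesn2* (0.48, edgeR adjusted p = 0.0249) was lost in a fit of only the 2 groups and with all 12 libraries. *Xpc*, which was not called with *c-Myc* alone, was higher than in juvenile osteoblasts by 0.73 (SE 0.27, edgeR adjusted p = 0.0353). The call of *Xpc* was lost in several alternatives, among them upper-quartile factors, a fit of only the 2 groups and all 12 libraries. The value of *Xpc* over *c-Myc* was 0.20 (SE 0.31). In the other direction *Tob1* was called (-0.40, edgeR adjusted p = 0.0223) and *Sertad1* was not (-0.30, edgeR adjusted p = 0.103). The largest increases were again those of *Psrc1* (3.80), *Slc19a2* (3.51) and *Eda2r* (3.31), and the most negative value was that of *Epha2* (-1.76, SE 0.12). The juvenile libraries are shared with the *c-Myc* comparison.

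Regulators of the pathway and other well-known targets were measured for context. All 9 regulators were called higher with *c-Myc*. They were *Trp53* itself, at 19.7 to 25.9 CPM in juvenile and 66.7 and 56.8 CPM in *c-Myc* libraries (log2 fold change 1.37, SE 0.13), its inhibitors *Mdm2* (0.93) and *Mdm4* (0.87), the phosphatase gene *Ppm1d* (0.79), the kinase genes *Atm* (1.85), *Atr* (2.03), *Chek1* (3.14) and *Chek2* (3.25), and *Cdkn2a*, which encodes the MDM2 inhibitor ARF and p16 (2.16). With R172H added none of the 9 was called, and *Trp53*, at 63.7 and 64.9 CPM, differed from *c-Myc* by 0.08 (SE 0.15). Counts per gene do not separate the R172H from the wild-type transcript. *Cdkn2a* was at 8.17 and 5.35 CPM with *c-Myc* and at 19.9 and 18.0 CPM with R172H, without overlap (log2 fold change 1.50, SE 0.71, edgeR adjusted p = 1). Of 9 other targets tested, 3 rose with *c-Myc*, namely the pro-apoptotic *Bax* (1.71) and *Bbc3* (1.48) and the mitochondrial reductase gene *Fdxr* (1.50), and 2 fell, *Pmaip1*, a pro-apoptotic BH3-only gene (-1.68), and *Trp53i11* (-4.19). Over all tested genes 28.4% were called higher and 25% lower, shares near these 3 and 2 of 9. *Cdkn1a*, which encodes p21, was at 162 to 205 CPM in juvenile libraries and at 196 and 200 CPM with *c-Myc* (0.01, SE 0.10). It was at 140 and 145 CPM with R172H, below all juvenile and *c-Myc* libraries. Its log2 fold change was -0.45 over *c-Myc* (SE 0.12, edgeR adjusted p = 0.171) and -0.44 over juvenile (SE 0.10, edgeR adjusted p = 0.00262). The difference from *c-Myc* depended on the fit, since *Cdkn1a* was called lower in 4 of 19 alternatives, with values from -0.51 to -0.239 over all 19.

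Between ages the targets moved little. In juvenile over adult osteoblasts, 2 of the 37 tested targets were called higher and 1 lower, against 1.89% of all 11345 genes called higher and 3.23% lower, and the median log2 fold change was 0.07 over the targets and 0.00093 over all genes. *Plk2*, a polo-like kinase gene, was at 37.8, 42.2, 34.0 and 30.0 CPM in juvenile and at 11.4, 16.7, 19.2 and 17.3 CPM in adult libraries. The groups did not overlap, and the log2 fold change was 1.15 (SE 0.18, edgeR adjusted p = 0.00166), with the call kept in every alternative. *Tnfrsf10b* (chromosome 14, 69767472 to 69784411) was at 3.17, 2.77, 2.74 and 0.367 CPM in juvenile and at 7.23, 6.58, 11.4 and 10.4 CPM in adult libraries, with juvenile replicate 4 far below the rest. Its log2 fold change was -1.97 (SE 0.45, edgeR adjusted p = 0.0173), and the call was lost without adult replicate 3 or 4 (edgeR adjusted p = 0.0526 and 0.0626). This death receptor gene was thus lower in juvenile osteoblasts than in both adult and *c-Myc* osteoblasts, whose libraries were at 7.93 and 7.83 CPM. *Pltp*, at 43.1, 57.5, 62.8 and 57.7 CPM in adult libraries, was higher at 3 weeks by 0.50 (SE 0.14, edgeR adjusted p = 0.0425). Its call was lost when any juvenile library, adult replicate 1 or adult replicate 4 was left out (edgeR adjusted p = 0.053 to 0.131). *Cdkn1a*, at 108 to 169 CPM in adult libraries, had a log2 fold change of 0.49 (SE 0.14, edgeR adjusted p = 0.0476), with groups that overlapped. This call was lost when any library other than adult replicate 3 was left out (edgeR adjusted p = 0.0571 to 0.135).

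**Figure D4:**
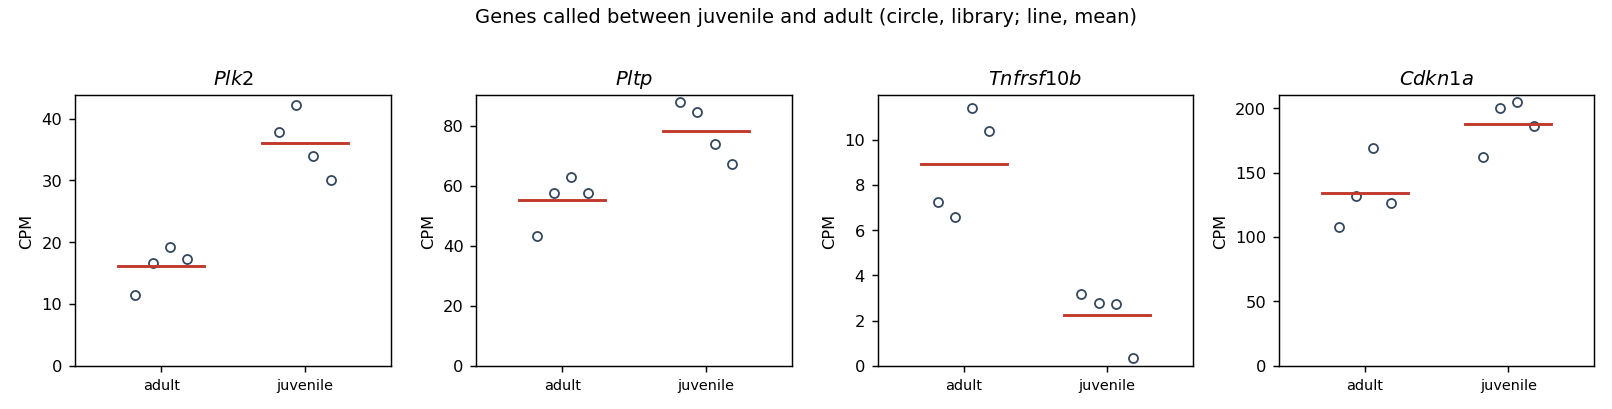
CPM in each adult and juvenile library (circles) with the group mean (line) for the 3 targets called between ages and for Cdkn1a. Juvenile libraries of Plk2 and Pltp lie above all adult libraries, those of Tnfrsf10b below, and those of Cdkn1a overlap with the adult libraries.

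Most of the 37 targets did not separate the ages. *Gdf15* had the largest log2 fold change (1.96, SE 0.88, edgeR adjusted p = 0.226), from 1.23 to 5.62 CPM in juvenile and from 0 to 1.90 CPM in adult libraries, with overlap. *Sertad1* (0.69, edgeR adjusted p = 0.123) and *Aen* (0.70, edgeR adjusted p = 0.127) were higher in every juvenile than in every adult library but did not pass. Chondrocyte markers differed between these groups as given above, and their part in these values was not tested.

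Per kilobase of exon, the order of the targets differed between groups. In juvenile osteoblasts the highest mean levels were those of *Btg2* (45.5 CPM per kb), *Pltp* (30.6), *Tob1* (27.6), *Ak1* (26.2) and *Epha2* (19.5), and the lowest were those of *Rrm2b* (0.282), *Eda2r* (0.231) and *Perp* (0.218). With *c-Myc*, *Rps27l* (36.8 CPM per kb), *Phlda3* (33.6) and *Ccng1* (26.1) had the highest mean levels, followed by *Tob1* (25.4) and *Btg2* (17.6). *Psrc1* moved from rank 32 to rank 8 of the 39 targets and *Slc19a2* from rank 35 to rank 16. With R172H added, *Rps27l* (35.1 CPM per kb), *Phlda3* (24.1) and *Tob1* (21.6) were highest. These are levels and not differences, and they depend on the annotated exon length. The summed level of all 39 targets was 808 to 902 CPM in juvenile, 793 to 836 CPM in adult, 1010 to 1040 CPM in *c-Myc* and 847 to 856 CPM in *c-Myc* + *R172H* libraries, a sum in which the few most abundant targets weigh most. As a share of all counts, without TMM, they took 0.0577% to 0.0721% in juvenile, 0.0674% to 0.0874% in adult, 0.128% to 0.142% in *c-Myc* and 0.131% to 0.132% in *c-Myc* + *R172H* libraries, and the ranges of both induced groups overlapped on that scale.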

How the data were processed

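RNA-seq libraries were made by the study from sorted mGFP+ cells with a directional kit and sequenced as single-end reads. Per the labels and the study's methods, the authors used bcl2fastq 2.20, removed adapters using cutadapt 4.6, mapped reads against mm10 in STAR 2.7.11a and deposited raw, unnormalized counts per gene made by HTSeq 2.0.5. The methods give separate GENCODE releases for alignment and for counting, and the strand setting is not given in the sources used here, so 7 targets whose exons overlap genes on the opposite strand (*Ddb2*, *Ei24*, *Plk3*, *Pltp*, *Rap2b*, *Rrm2b* and *Tigar*) are uncertain.

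Counts were tested in R 4.3.3 with edgeR 4.0.16, with TMM normalization, the default filter on low counts, a robust quasi-likelihood fit and p-values adjusted by Benjamini-Hochberg over all genes tested at 0.05. The juvenile group and both induced groups shared 1 fit (12588 genes), and juvenile and adult libraries another (11345 genes). The SE, an approximation, is the absolute log2 fold change over the root of the F statistic, and the 95% intervals are 1.96 SEs. CPM were computed with TMM factors over all 12 libraries, and CPM per kb with the union of annotated exons. Alternatives were RLE and upper-quartile factors, no filter, at least 10 counts in every library, DESeq2 1.42.0, other sets of libraries, a replicate block and each library left out. Library totals, fits without the libraries that express *Xist*, and the replicate block in a fit of 2 groups were added after seeing the data.

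The list of targets and the other gene lists were chosen with earlier results of these data known. Values in every library are given for targets past the threshold with R172H, of which there were none, otherwise for the 3 largest increases and decreases among those called with *c-Myc* and for those called between ages. *Cdkn1a*, *Mdm2*, *Bax*, *Trp53* and *Myc* are named as checks, and the other targets by role. *Ptprv* of the list of other targets was not found by name in the table. *Spata18* was too low to be tested. A gene of the haematopoietic list is not reported here. Replicate libraries of the control groups were separate pools of mice, and the sources used here do not state how many mice gave each library of an induced group. The 2 libraries of each induced group differed in *Xist*, so they were not from the same mouse. Replicates of 1 group differed by more than counting noise (chi-square per degree of freedom 5.45 to 136). No molecular identifiers were used, so reads are not independent molecules. The fits were tested on simulated data. The changes planted there were larger than the values of nearly all targets with R172H added. The simulation thus does not show whether the fits could find changes of that size.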

Additional observations from a re-analysis of the deposited data

Results flagged for a closer look

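In groups of 4 libraries, 1 library was set far apart from the other 3 by Dixon's criterion in 5 of 88 gene and group combinations checked, about the number that chance gives at 1 in 20. *Phlda3* was at 11.5 CPM in juvenile replicate 4, whereas the other juvenile libraries were at 19.3 to 20.8 CPM. *Tnfrsf10b* was at 0.367 CPM in the same library and at 2.74 to 3.17 CPM in the others. *Rps27l* was at 13.9 CPM in juvenile replicate 2, with the others at 9.43 to 9.68 CPM, and at 15.6 CPM in adult replicate 3, with the others at 10.7 to 11.3 CPM. *Sesn2* was at 27.7 CPM in adult replicate 3, with the others at 16.9 to 18.2 CPM. The calls of *Phlda3*, *Tnfrsf10b* and *Rps27l* with *c-Myc* were kept without the juvenile library concerned.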

How the results depend on the processing

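With library totals, 31 targets were called higher and 2 lower with *c-Myc*, 29 higher and 3 lower in *c-Myc* + *R172H* over juvenile osteoblasts, and 1 higher and 2 lower in juvenile over adult osteoblasts. The sign of 5 values turned in that setting, namely *Sertad1* (0.456) and *Ak1* (0.148) with *c-Myc*, and *Eda2r* (0.0076), *Tnfrsf10b* (0.172) and *Ei24* (0.0225) with R172H added.

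The count of targets called lower when R172H was added, 0 by edgeR, was 1 (*Epha2*) without a filter and with at least 10 counts in every library, 2 with DESeq2, 8 in a fit of only the 2 groups, 5 with the replicate block, and 12 in a fit of the 2 groups with the block. It stayed 0 with RLE or upper-quartile factors, all 12 libraries, library totals, the libraries without *Xist*, and each library left out. The count of targets that rose with *c-Myc* and fell with R172H, also 0, was 4 with only the 2 groups (*Ccng1*, *Phlda3*, *Zmat3* and *Sesn2*) and 3 with the block (*Ccng1*, *Phlda3* and *Sesn2*). In the fit of the 2 groups with the block, 6 of the 18 targets that rose in the fit of 8 libraries were called lower (these 4, *Psrc1* and *Pidd1*). The fit of 2 groups had 2 residual degrees of freedom and a median prior of 32.6. That with the block as well had 1 and 127, and that with the block alone 2 and 12. The values in the text had 5 and 7.18, so the spread in the alternative fits was set mostly by other genes. The common biological coefficient of variation, a measure of spread between replicates, was 0.192 in the fit of 8 libraries. It was 0.106 with the block, 0.089 with only the 2 groups and 0.075 with both choices. The count of 0 in the text thus rests on a wider spread, estimated with juvenile libraries included. Replicate numbers did not pair the samples on genes outside the X and Y chromosomes. There the correlation of deviations was 0.0407 between the *c-Myc* and *c-Myc* + *R172H* libraries of 1 number. Replicate 2 was the library with *Xist* in both induced groups. In the fit of the 2 groups the block thus also separated libraries with and without *Xist*. Over all genes, the count called lower with R172H was between 2 and 612.

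In juvenile over adult osteoblasts, 4 targets were called higher without a filter and 4 with all 12 libraries in the fit, and 0 lower with at least 10 counts in every library. With each library left out in turn, between 1 and 2 targets were called higher and between 0 and 2 lower. Alternatives that are not named here left these counts within 1.5 times their value.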
